A study of Mus musculus with 5 samples.

Results

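Chromatin remodelers are protein machines that use ATP to slide, evict or exchange nucleosomes, and so set how open the DNA of a gene is to transcription. In SWI/SNF (BAF and PBAF) complexes 1 of 2 alternative ATPases, encoded by Smarca4 (BRG1) and Smarca2 (BRM), sits on a core of shared subunits and is guided by ARID and bromodomain subunits. ISWI, CHD and INO80-type remodelers are built around ATPases of their own, and in the podocyte, the postmitotic cell that covers the glomerular capillaries with foot processes, they belong to the general chromatin machinery of the nucleus. The genes described here are the protein-coding genes of the deposited table whose mouse symbol starts with Smarc (Smarcal1 left out), is Chd or Arid followed by a digit, or is Ino80, Srcap, Ep400, Pbrm1, Atrx, Bptf or Hells. This gave 38 of the 21019 genes in the table, and 1 further gene of that description, Arid3c, was not analysed here. The choice rests on names, not on measured values. ARID proteins outside SWI/SNF are thus included with the remodelers proper.

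The study compared podocyte RNA of Pfn1-KO and control mice, to learn which transcripts are translated when profilin1, an actin-binding protein, is missing from podocytes. The Pfn1-KO mice carried Pfn1 fl/fl, Pod-Cre (Cre recombinase under a podocyte-specific promoter), Rosa-DTR fl and the TRAP allele, and the controls carried Pfn1 +/+ with the same Pod-Cre, Rosa-DTR fl and TRAP alleles. TRAP (translating ribosome affinity purification) is a GFP tag on the ribosomal protein L10a that Cre switches on, so that RNA bound to tagged ribosomes can be pulled from kidney cortex lysate with antibodies to GFP. All mice were 3 weeks old, each library pooled RNA of 3 mice, and there were 3 Pfn1-KO-labelled libraries (here KO-N2, KO-N3 and KO-N4) and 2 control libraries (Ctrl-N1 and Ctrl-N3). Values within a group are given in that order, in FPKM (fragments per kilobase of exon scaled to the reads of the library).

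Several facts of the whole series touch every value below. Pfn1 itself had 41.9, 17.2 and 27.8 FPKM in the Pfn1-KO-labelled libraries, against 13.6 and 11.8 FPKM in the controls, so the targeted gene was not lower in the Pfn1-KO-labelled libraries (adjusted p = 0.123). The values sum all exons of Pfn1, while the floxed allele loses 1 coding exon, so they could not check the labels, and every direction below rests on the labels as given. Library sizes recovered from the values ran between 18186900 and 24871893 reads. Protein-coding genes above 0 made up 98.9% to 99.9% in the Pfn1-KO-labelled libraries, against 41.6% and 45.4% in the controls, and a ribosomal RNA gene (CT010467.1) took 346, 133787 and 194 FPKM in the Pfn1-KO-labelled libraries, against 291221 and 311036 FPKM in the controls. Beside 70.1% of all genes tested, 14 of 19 podocyte markers and 17 of 18 proximal tubule markers were called higher, the tubule markers with summed levels of 4291 to 8357 FPKM in the Pfn1-KO-labelled libraries, against 312 to 712 FPKM in the controls. Podocyte markers summed to 290 to 863 FPKM in the Pfn1-KO-labelled libraries, against 115 and 138 FPKM in the controls, where Foxc2, Tcf21 and Trpc6 were listed at 0. Macrophage markers ranged widely within both groups, at 15.9 to 234 FPKM in the Pfn1-KO-labelled libraries, against 530 and 4.13 FPKM in Ctrl-N1 and Ctrl-N3. The part of these shifts in the results was not tested, and fewer cells of a type and less RNA per cell cannot be told apart in such samples. With many widely used genes at 0 in the controls, a remodeler gene at 0 there is described only as listed at 0.

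Most genes of the table read higher in the Pfn1-KO-labelled libraries, whereas most of the remodeler genes lay below the general shift. Of the 38 genes, 35 reached 1 FPKM in at least 2 of the 5 libraries and were tested, with limma on log2(FPKM + 1) and Benjamini-Hochberg adjustment over all 14631 genes tested. Among these 35, 9 were called higher in the Pfn1-KO-labelled libraries, or 25.7%, beside 70.1% of all genes tested, and 6 were called lower, or 17.1%, beside 2.13% of all genes tested. The other 20 did not pass the adjusted threshold of 0.05. A gene at 0 in both controls could not be called lower, and such genes were rarer among the remodelers. Among genes above 0 in every library, 4 of 29 remodelers were called higher, or 13.8%, beside 51.2% of all such genes. In the same fit 5 were called lower, or 17.2%, beside 6.61%. The median log2 fold change of the 35 was -0.33, beside 1.75 for all genes tested, and 27 of the 35 lay below that overall median. The 3 genes not tested were Arid3b, Arid5a and Chd5. Of the 9 called higher, 4 (Smarcad1, Smarcb1, Smarcd1 and Srcap) were under 1 FPKM in both controls and passed the filter only through the libraries in which they are high. Smarcd2, Chd9, Ep400 and Arid1b reached 1 FPKM in 1 control only. Of the 9, Chd1 alone would have passed the filter on its control values, and the other calls are given as descriptions. In 13 of the 35 genes all Pfn1-KO-labelled libraries lay below both controls, beside 3.49% of all genes tested, in 12 they lay above both, beside 80.1%, and in 10 the groups overlapped.

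**Figure D1:**
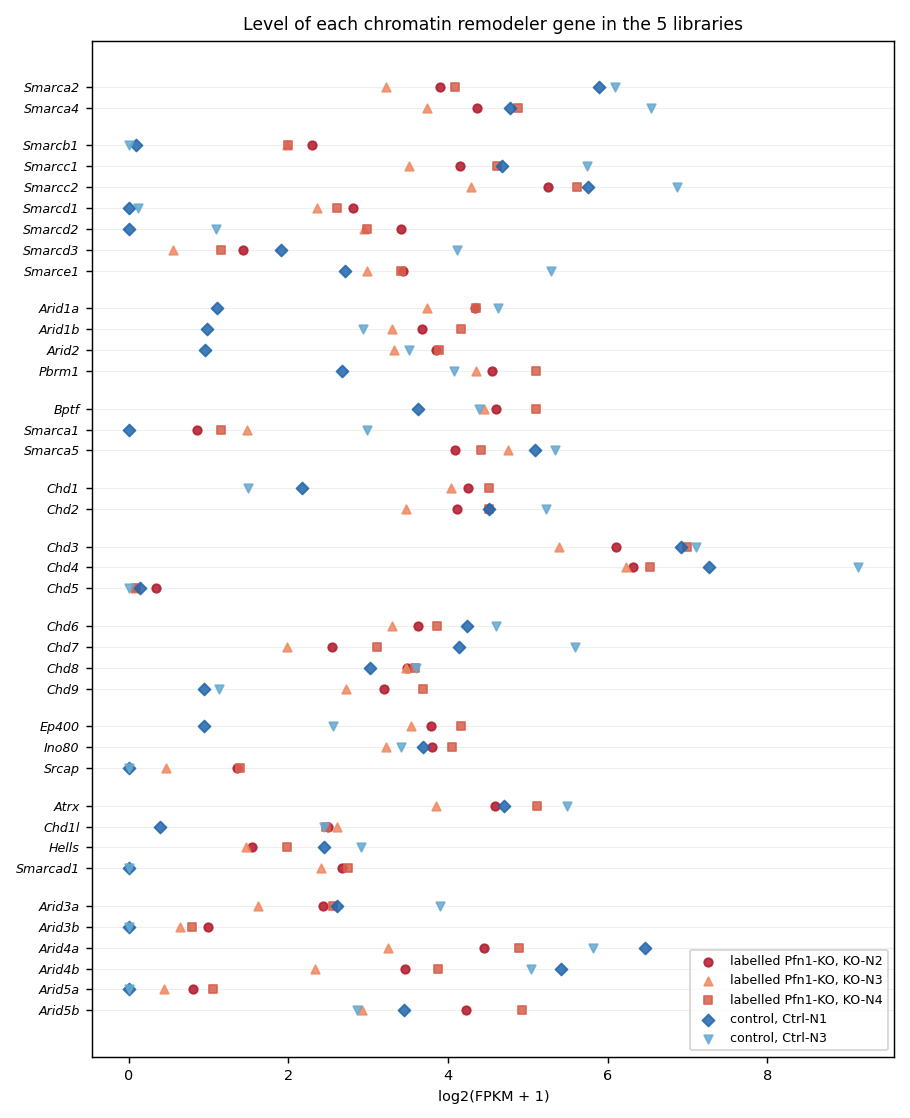
Level of each of the 38 chromatin remodeler genes in the 5 libraries, on a log2(FPKM + 1) axis, with genes grouped by complex from SWI/SNF at the top to ARID proteins outside it at the bottom. Each point is 1 library: red shades are the Pfn1-KO-labelled libraries and blue shades the controls, and the blue points spread farther both to the left, where 7 genes are under 1 FPKM in both controls, and to the right, where Chd4 reaches 561 FPKM in Ctrl-N3.

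The size and the sign of these changes depended on the scaling of the libraries. After quantile normalization the median of all genes tested was -0.09, and limma called 0 remodelers higher (1 at an unadjusted p under 0.05) and 15 lower, or 42.9%, beside 6.99% and 12.3% of all genes tested. With median-ratio size factors (all-gene median 0.98) 4 were called higher and 18 lower, beside 46.8% and 6.18% of all genes. Rescaling to the sum of nuclear protein-coding genes (all-gene median 1.34) gave 7 higher and 16 lower, beside 54.8% and 4.24%. Rescaling to TPM (all-gene median 2.93) gave 10 higher and 0 lower (also 0 at an unadjusted p under 0.05), beside 75.4% and 0.67%. limma-voom on recovered reads called 6 higher and 4 lower, beside 49.6% and 1.44% of the genes it tested. Under each of these settings, and in each of the 5 fits that left out 1 library, between 23 and 31 remodelers lay below the median of all genes. Median-ratio, nuclear protein-coding and TPM scaling divide a library by 1 number, which shifts all but low genes nearly alike. Those settings could therefore hardly change this place and are no check of it. The number called lower was 0 without KO-N2 (2 at an unadjusted p under 0.05), 2 without KO-N3, 2 without KO-N4, 10 without Ctrl-N1 and 4 without Ctrl-N3, and the number called higher was 6, 7, 6, 6 and 12 in the same fits. In the same 5 fits the share of all genes called lower was 0.930%, 1.67%, 1.06%, 3.25% and 2.57%, and the share called higher was 44.1%, 73.1%, 47.4%, 57.8% and 56.1%. Of the 6 genes called lower, 0 kept the call whichever library was left out. The bar plot of calls gives these counts for each alternative.

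**Figure D2:**
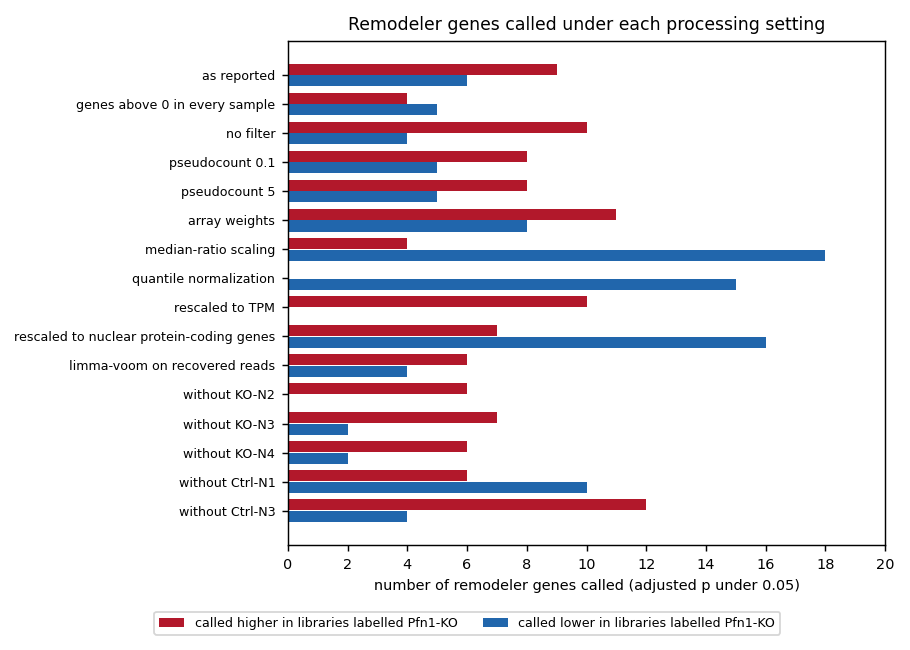
Number of the remodeler genes called higher (red) and lower (blue) in the Pfn1-KO-labelled libraries, as bars from 0, for the fit as reported and for each alternative filter, pseudocount, scaling, model or left-out library. The red bars range from 0 after quantile normalization to 12 without Ctrl-N3, and the blue bars from 0 under TPM and without KO-N2 to 18 with median-ratio scaling.

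**Figure D3:**
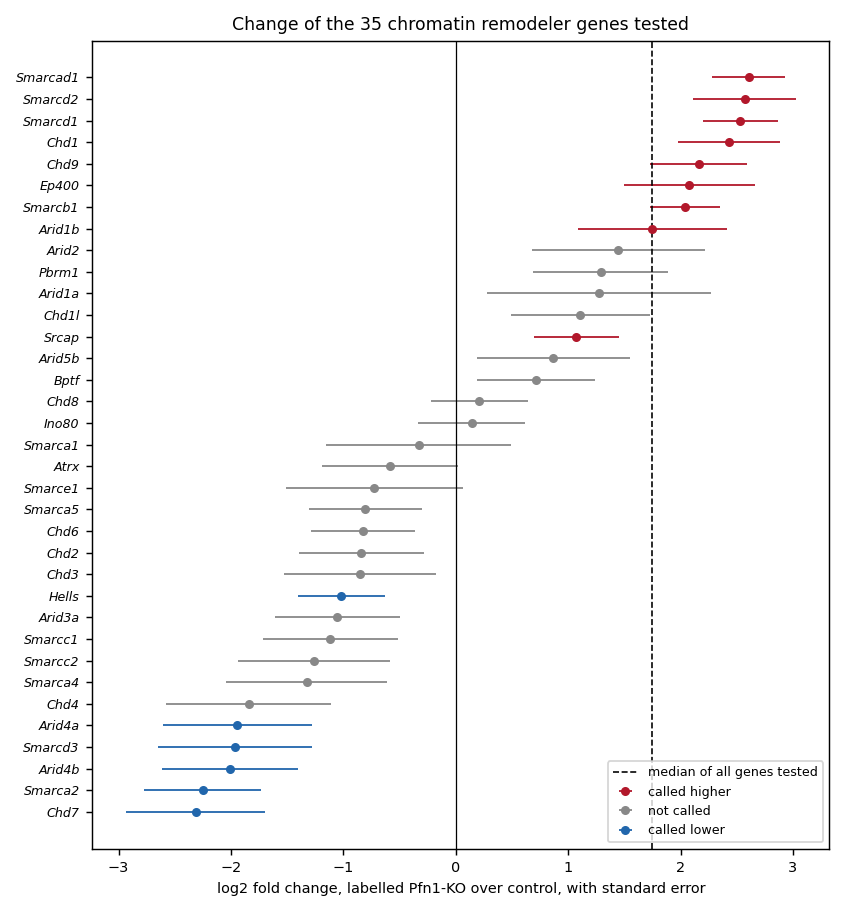
log2 fold change of the Pfn1-KO-labelled libraries over controls for the 35 remodeler genes tested, with its standard error as a bar, sorted from the highest at the top. Red points were called higher, blue points lower and grey points neither, and the dashed line is the median of all genes tested (1.75), to the left of which 27 of the 35 genes lie. For Smarcad1 and Srcap, listed at 0 in both controls, the plotted value is set by the pseudocount and is no fold.

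Shares within a library do not depend on its scaling. The 38 genes together held 0.293%, 0.272% and 0.438% of the FPKM of nuclear protein-coding genes in the Pfn1-KO-labelled libraries, against 1.02% and 1.75% in the controls. All 38 were above 0 in each Pfn1-KO-labelled library, against 31 and 32 genes in the controls, or 81.6% and 84.2% of them, beside the 41.6% and 45.4% of protein-coding genes given above. Only Arid3b, Arid5a, Smarcad1 and Srcap were listed at 0 in both controls, which is 10.5% of the 38, beside 42.6% of protein-coding genes. The share of the protein-coding signal held by the remodelers was thus lower in all 3 Pfn1-KO-labelled libraries than in both controls.

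The coding sequences were searched for a feature that the choice of genes did not use. For each gene the highest share of purines (A and G) in any 50-base window of its coding sequence was read from GENCODE vM21 transcripts on GRCm38. That long purine stretches go with genes called lower was known from earlier results of these data. The windows of genes on which the results turn are printed beside their values, 5′ to 3′ on the coding strand, with purines in capitals and pyrimidines in lower case.

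Among the 13 SWI/SNF subunits, 4 were called higher (30.8%) and 2 lower (15.4%), beside 70.1% and 2.13% of all genes tested. The alternative ATPases are given before the subunits they sit on. Smarca2, which encodes the ATPase BRM, had 13.9, 8.37 and 16.0 FPKM in the Pfn1-KO-labelled libraries, against 58.4 and 67.1 FPKM in the controls. Every Pfn1-KO-labelled library lay below both controls, with a log2 fold change of -2.25 ± 0.52 (SE, limma adjusted p = 0.00945). The call was lost without KO-N2 (adjusted p = 0.0527) and under TPM (-1.57, adjusted p = 0.168), with the sign kept. Smarca4, which encodes the alternative ATPase BRG1, had 19.6, 12.3 and 28.4 FPKM in the Pfn1-KO-labelled libraries, against 26.3 and 91.9 FPKM in the controls. These groups overlapped, and the log2 fold change of -1.33 ± 0.71 did not pass (adjusted p = 0.127). Within each library Smarca2 made up 41.5%, 40.4% and 36.0% of the sum of both ATPase genes in the Pfn1-KO-labelled libraries, against 68.9% and 42.2% in the controls, so that the balance differed mainly through Ctrl-N1.

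The richest purine windows of the ATPase genes are shown here because these paralogs share such a stretch. It lies across the junction of exons 9 and 10 of 34 in Smarca2 and of exons 10 and 11 of 34 in Smarca4, and 92% of its bases are purines in each.
Smarca2 (GRCm38 chr19:26654475-26664063, plus strand, intron left out): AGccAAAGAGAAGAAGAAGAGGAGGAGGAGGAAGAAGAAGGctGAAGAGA
Smarca4 (GRCm38 chr9:21642563-21642720, plus strand, intron left out): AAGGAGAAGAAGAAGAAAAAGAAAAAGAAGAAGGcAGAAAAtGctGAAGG

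Of the 7 core and accessory subunits, 3 were called higher (42.9%) and 1 lower (14.3%), beside 70.1% and 2.13% of all genes tested. None of those called higher could have passed the filter on its control values. Smarcb1 (SNF5, INI1), a core subunit found in nearly all SWI/SNF complexes, had 3.90, 2.95 and 2.98 FPKM in the Pfn1-KO-labelled libraries, against 0.0692 and 0 FPKM in the controls, where the nonzero value stands for 13 reads. Its log2 fold change was 2.04 ± 0.31 (SE) and turned to -0.15 after quantile normalization. The filter let it in only through the Pfn1-KO-labelled libraries, so the call is no support for a change. The scaffold subunits behaved otherwise. Smarcc2 (BAF170) had 37.1, 18.6 and 48.1 FPKM in the Pfn1-KO-labelled libraries, against 52.9 and 116 FPKM in the controls, with a log2 fold change of -1.26 ± 0.68 that did not pass (adjusted p = 0.127). Smarcc1 (BAF155), its paralog, had 16.8, 10.4 and 23.5 FPKM in the Pfn1-KO-labelled libraries, against 24.6 and 52.5 FPKM in the controls, and did not pass either (-1.12 ± 0.60, adjusted p = 0.129). For both scaffold genes every Pfn1-KO-labelled library lay below both controls. Smarcc2 made up 64.1% to 68.9% of their sum in the Pfn1-KO-labelled libraries, against 68.3% and 68.9% in the controls, so the ratio of these dimer partners was nearly the same in all 5 libraries. Smarce1 (BAF57), which binds DNA through an HMG domain, had 9.87, 6.90 and 9.63 FPKM in the Pfn1-KO-labelled libraries, against 5.54 and 38.2 FPKM in the controls, and the groups overlapped.

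The Smarcd genes encode BAF60 subunits, of which a complex takes 1 of 3 alternatives. Smarcd1 (BAF60A) had 5.999, 4.12 and 5.11 FPKM in the Pfn1-KO-labelled libraries, against 0 and 0.0871 FPKM in the controls, where the nonzero value stands for 8 reads. Smarcd2 (BAF60B) had 9.65, 6.72 and 6.94 FPKM in the Pfn1-KO-labelled libraries, against 0 and 1.14 FPKM in the controls. Their log2 fold changes were 2.53 ± 0.33 and 2.57 ± 0.46, and 0.21 and 0.35 after quantile normalization, where neither passed. Neither gene could have passed the filter on its control values, so these are descriptions. Smarcd3 (BAF60C), best known from heart and muscle development, had 1.69, 0.471 and 1.22 FPKM in the Pfn1-KO-labelled libraries, against 2.76 and 16.3 FPKM in the controls. It was called lower (log2 fold change -1.96 ± 0.68, adjusted p = 0.0380), a call kept only in the fit without Ctrl-N1. Within libraries, Smarcd3 was 21.99%, 10.3% and 19.3% of the sum of Smarcd3 and Smarcd1 in the Pfn1-KO-labelled libraries, against 100% and 99.5% in the controls. The difference Smarcd3 minus Smarcd1 in log2(FPKM + 1) averaged -1.55 in the Pfn1-KO-labelled libraries and 2.95 in the controls, without overlap. This difference and the control shares rest in part on Smarcd1 at 0 and 8 reads in the controls. With 3 against 2 libraries an exact permutation test cannot go below 0.1, the value reached here (adjusted p = 0.24 over the 12 paralog pairs compared).

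The windows of the Smarcd genes and of Smarcb1 are shown because none has a long purine stretch, whichever way the gene was called. Their purine shares are 72% in Smarcd1, 70% in Smarcd2, 72% in Smarcd3 and 78% in Smarcb1, and all but that of Smarcd3 span an exon junction.
Smarcd1 (GRCm38 chr15:99703263-99703609, plus strand, intron left out): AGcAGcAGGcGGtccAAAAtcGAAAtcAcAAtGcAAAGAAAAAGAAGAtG
Smarcd2 (GRCm38 chr11:106267152-106267354, minus strand, intron left out): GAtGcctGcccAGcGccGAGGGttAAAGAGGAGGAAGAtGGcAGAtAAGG
Smarcd3 (GRCm38 chr5:24593712-24593761, minus strand, exon 10 of 13): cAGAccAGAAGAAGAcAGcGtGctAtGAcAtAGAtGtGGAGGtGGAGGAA
Smarcb1 (GRCm38 chr10:75897080-75897485, minus strand, intron left out): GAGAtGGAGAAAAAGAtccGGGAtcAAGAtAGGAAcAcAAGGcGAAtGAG

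The targeting subunits decide whether a complex is BAF or PBAF. Arid1a (BAF250A), the usual BAF subunit, had 19.2, 12.3 and 19.4 FPKM in the Pfn1-KO-labelled libraries, against 1.14 and 23.8 FPKM in the controls. Arid1b (BAF250B), its alternative, had 11.7, 8.83 and 16.9 FPKM in the Pfn1-KO-labelled libraries, against 0.981 and 6.64 FPKM in the controls. Of the 4 targeting subunits only Arid1b was called higher (25%), beside 70.1% of all genes tested. Its log2 fold change was 1.75 ± 0.66 (limma adjusted p = 0.0496), at the level of the all-gene median. It kept the call in 1 of 5 fits with a library left out and turned sign after quantile normalization (-0.24). Arid2 (BAF200), which marks PBAF, had 13.4, 9.01 and 13.8 FPKM in the Pfn1-KO-labelled libraries, against 0.947 and 10.4 FPKM in the controls. Pbrm1 (BAF180), the bromodomain subunit of PBAF, had 22.4, 19.4 and 33.3 FPKM in the Pfn1-KO-labelled libraries, against 5.40 and 15.9 FPKM in the controls, above both but short of the threshold (1.29 ± 0.60, adjusted p = 0.0887). In all 4 of these genes Ctrl-N3 was above Ctrl-N1. Without Ctrl-N3 the log2 fold changes were 3.04 for Arid1a, 2.72 for Arid1b, 2.72 for Arid2 and 1.99 for Pbrm1, beside an all-gene median of 1.72. Without Ctrl-N1 they were -0.49, 0.78, 0.17 and 0.59, beside an all-gene median of 1.78.

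**Figure D4:**
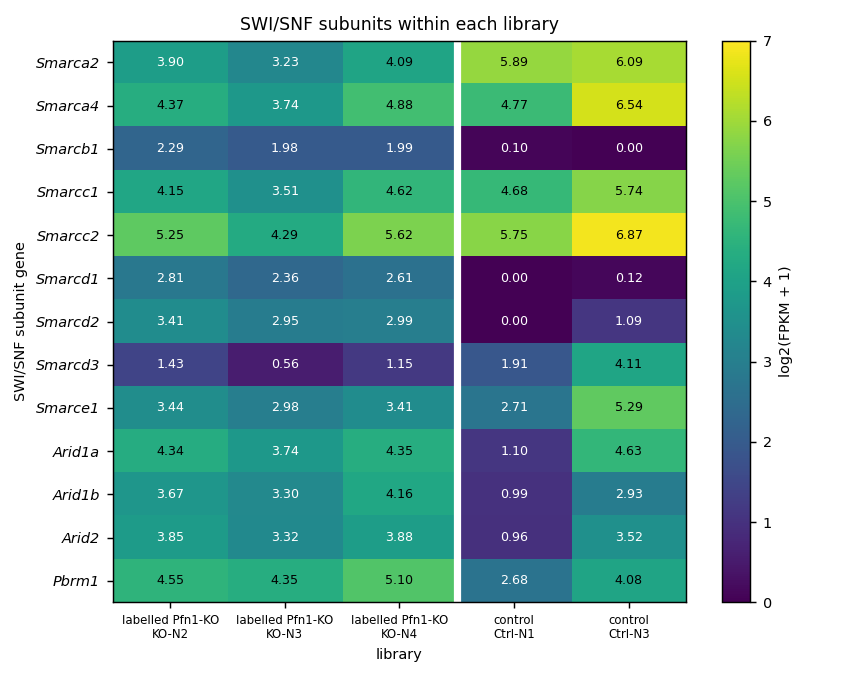
Heatmap of the 13 SWI/SNF subunit genes (rows) in the 3 Pfn1-KO-labelled libraries and the 2 controls (columns), with log2(FPKM + 1) printed in each cell and given by colour from dark (0) to bright (7). The columns of Pfn1-KO-labelled libraries are even in colour (SD over subunits 1.01 to 1.29), while the control columns run from near 0 for Smarcb1 and Smarcd1 to bright for Smarcc2 and Smarca2 (SD 2.18 and 2.33).

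Over the 13 SWI/SNF genes the SD of log2(FPKM + 1) was 1.01, 1.02 and 1.29 in the Pfn1-KO-labelled libraries, against 2.18 and 2.33 in the controls. Under 1 FPKM lay 0, 1 and 0 of these genes in the Pfn1-KO-labelled libraries, against 5 and 2 in the controls. The same SD over all 38 genes was 1.42, 1.39 and 1.60 in the Pfn1-KO-labelled libraries, against 2.28 and 2.38 in the controls, so the spread was narrower over all 38 genes as well. The highest subunit was Smarcc2 in KO-N2, KO-N4 and Ctrl-N3, Pbrm1 in KO-N3 and Smarca2 in Ctrl-N1.

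None of the 3 genes of ISWI complexes was called in either direction by limma as reported, and 0 had an unadjusted p under 0.05. Of all genes tested 70.1% were called higher and 2.13% lower. Smarca5 was called lower after quantile normalization, with median-ratio scaling, with the nuclear protein-coding sum and with array weights. In the same order 12.3%, 6.18%, 4.24% and 2.69% of all genes were called lower. limma-voom called 0 of the 3 ISWI genes. Smarca5 (SNF2H), the main ISWI ATPase, had 16.0, 25.9 and 20.2 FPKM in the Pfn1-KO-labelled libraries, against 33.1 and 39.6 FPKM in the controls. All 3 libraries lay below both controls, with a log2 fold change of -0.80 ± 0.50 (adjusted p = 0.18). Smarca5 was 1 of only 3 remodelers whose highest Pfn1-KO-labelled library was KO-N3. KO-N3 was the lowest of its group in 35 of the 38 genes, and it lay below KO-N2 in 12131 of 15046 protein-coding genes. Smarca1 (SNF2L), the other ISWI ATPase, had 0.807, 1.79 and 1.22 FPKM in the Pfn1-KO-labelled libraries, against 0 and 6.90 FPKM in the controls, and the controls enclosed the other group. It was called lower only without Ctrl-N1 (adjusted p = 0.014). Bptf, the large reader subunit of the NURF complex, had 23.3, 20.9 and 33.4 FPKM in the Pfn1-KO-labelled libraries, against 11.3 and 19.9 FPKM in the controls (0.72 ± 0.53, adjusted p = 0.244).

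The CHD proteins, which carry paired chromodomains beside their ATPase, held the most abundant remodelers, with Chd4 or Chd3 highest of the 38 genes in each library. Of 8 tested, 2 were called higher (25%) and 1 lower (12.5%), beside 70.1% and 2.13% of all genes tested. Chd4 (Mi-2beta), the main ATPase of the repressive NuRD complex, had 78.4, 74.2 and 91.4 FPKM in the Pfn1-KO-labelled libraries, against 153 and 561 FPKM in the controls. It lay below both controls in all 3 libraries but did not pass (log2 fold change -1.84 ± 0.74, adjusted p = 0.0577), and it passed in the fit without Ctrl-N1 (adjusted p = 0.0155). Chd3 (Mi-2alpha), the alternative NuRD ATPase, had 67.6, 40.8 and 126 FPKM in the Pfn1-KO-labelled libraries, against 120 and 137 FPKM in the controls (-0.85 ± 0.68, adjusted p = 0.28). Chd3 and Chd4 together held 26.2%, 28.5% and 29.2% of the summed FPKM of all 38 genes in the Pfn1-KO-labelled libraries, against 36.3% and 46.5% in the controls. Chd5, a mostly neuronal member, stayed at 0.271, 0.0545 and 0.0631 FPKM in the Pfn1-KO-labelled libraries, against 0.106 and 0 FPKM in the controls.

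Chd1, which binds methylated histone H3 lysine 4 at active genes, had 17.99, 15.4 and 21.8 FPKM in the Pfn1-KO-labelled libraries, against 3.52 and 1.82 FPKM in the controls. It was called higher (log2 fold change 2.43 ± 0.45, adjusted p = 0.00443) and kept its sign after quantile normalization without passing (0.46, adjusted p = 0.392). Chd2, its closest paralog, had 16.3, 10.1 and 21.8 FPKM in the Pfn1-KO-labelled libraries, against 21.9 and 36.5 FPKM in the controls (-0.84 ± 0.56, adjusted p = 0.201). Within libraries Chd2 made up 47.6%, 39.5% and 50.02% of the pair in those labelled Pfn1-KO, against 86.2% and 95.2% in the controls.

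In the subfamily of Chd6 to Chd9, 1 of 4 was called higher (25%) and 1 lower (25%), beside 70.1% and 2.13% of all genes tested. Chd7, mutated in CHARGE syndrome in humans, had 4.84, 2.95 and 7.67 FPKM in the Pfn1-KO-labelled libraries, against 16.6 and 47.2 FPKM in the controls. It was called lower (log2 fold change -2.32 ± 0.62, adjusted p = 0.016), a call kept in the fits without KO-N4, Ctrl-N1 or Ctrl-N3 and lost without KO-N2 (adjusted p = 0.0826) or KO-N3 (adjusted p = 0.0651). Chd8, a paralog known for its role in human autism, was nearly level, at 10.2, 10.2 and 11.0 FPKM in the Pfn1-KO-labelled libraries, against 7.11 and 11.1 FPKM in the controls. Chd8 exceeded Chd7 in each Pfn1-KO-labelled library (67.8%, 77.5% and 59.0% of their sum), and Chd7 exceeded Chd8 in both controls (Chd8 at 30.0% and 19.0%). Chd9 had 8.15, 5.60 and 11.9 FPKM in the Pfn1-KO-labelled libraries, against 0.928 and 1.19 FPKM in the controls, with a log2 fold change of 2.16 ± 0.43 whose sign turned after quantile normalization (-0.14). It reached 1 FPKM in 1 control only, and its call is given as a description. Chd6 had 11.4, 8.83 and 13.5 FPKM in the Pfn1-KO-labelled libraries, against 17.9 and 23.2 FPKM in the controls (-0.82 ± 0.47, adjusted p = 0.142). Chd6 made up 58.2%, 61.2% and 53.2% of the sum of Chd6 and Chd9 in the Pfn1-KO-labelled libraries, against 95.1% and 95.1% in the controls.

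The windows of 3 CHD genes are shown to set genes that lay below the controls (Chd7 and Chd4) beside Chd1, which lay above them. Their purine shares are 86% in Chd7, 92% in Chd4 and 84% in Chd1. Chd9, which lay above both controls, has a share of 86%, the same as Chd7.
Chd7 (GRCm38 chr4:8785589-8785638, plus strand, exon 3 of 38): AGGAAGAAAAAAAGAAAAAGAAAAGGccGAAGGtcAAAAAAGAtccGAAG
Chd4 (GRCm38 chr6:125122210-125122259, plus strand, exon 33 of 39): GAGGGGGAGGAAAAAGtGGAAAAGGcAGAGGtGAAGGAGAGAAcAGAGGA
Chd1 (GRCm38 chr17:15752405-15752454, plus strand, exon 23 of 36): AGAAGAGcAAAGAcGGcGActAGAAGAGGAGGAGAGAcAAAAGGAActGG

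Over the 12 paralog pairs, 5 had within-library differences that did not overlap between the groups. No such share was computed over other pairs of genes, and among single genes tested the groups were already apart in 80.1% upward and 3.49% downward. In log2(FPKM + 1), the mean difference in the Pfn1-KO-labelled libraries less that in the controls was -4.50 for Smarcd3 minus Smarcd1, -3.27 for Chd2 minus Chd1, -2.99 for Chd6 minus Chd9 and 2.53 for Chd8 minus Chd7. It was -0.93 for Smarca2 minus Smarca4, with the nearest libraries at -0.47 in KO-N2 and -0.45 in Ctrl-N3. All 5 reached the smallest exact permutation p of 0.1, and no pair could pass after adjustment (0.24). The difference of Smarcd3 and Smarcd1 rests in part on the floor values of Smarcd1 in the controls. The other 7 pairs overlapped, among them Arid4b and Arid4a, given below.

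The ATPases of INO80, SRCAP and TIP60 complexes exchange or space nucleosomes that hold histone H2A.Z. Ep400 (p400), of TIP60, had 12.8, 10.6 and 16.9 FPKM in the Pfn1-KO-labelled libraries, against 0.927 and 4.87 FPKM in the controls. It was called higher (log2 fold change 2.08 ± 0.58, adjusted p = 0.0188), and the call held in 1 of 5 fits with a library left out, that without Ctrl-N3. Srcap, which loads H2A.Z, had 1.57, 0.380 and 1.63 FPKM in the Pfn1-KO-labelled libraries and was listed at 0 in both controls, so no fold is given. It entered the test only through the Pfn1-KO-labelled libraries, its call as higher was kept only without KO-N3, and it passed in the other direction after quantile normalization (adjusted p = 0.022), where genes at 0 are ranked as ties. Ino80 had 12.9, 8.35 and 15.5 FPKM in the Pfn1-KO-labelled libraries, against 11.9 and 9.61 FPKM in the controls, with overlap (0.14 ± 0.48, adjusted p = 0.792).

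Among the 4 remaining remodeler ATPases 1 was called higher and 1 lower, beside 70.1% and 2.13% of all genes tested. Smarcad1, which acts in end resection and in the upkeep of heterochromatin, had 5.36, 4.31 and 5.70 FPKM in the Pfn1-KO-labelled libraries and was listed at 0 in both controls. It entered the test only through the libraries in which it is above 0, so its call is no support for a change, and no fold is given. Hells (LSH), a remodeler needed for DNA methylation and most abundant in proliferating cells, had 1.90, 1.77 and 2.94 FPKM in the Pfn1-KO-labelled libraries, against 4.47 and 6.51 FPKM in the controls. It was called lower by a narrow margin (log2 fold change -1.02 ± 0.38, adjusted p = 0.0488) and lost the call in every fit that left out 1 library. Atrx, which places histone H3.3 at repeats with Daxx, had 23.0, 13.4 and 33.6 FPKM in the Pfn1-KO-labelled libraries, against 25.1 and 43.9 FPKM in the controls (-0.58 ± 0.60, adjusted p = 0.399). Chd1l (ALC1), activated by poly(ADP-ribose) at DNA damage, had 4.65, 5.12 and 4.56 FPKM in the Pfn1-KO-labelled libraries, against 0.313 and 4.45 FPKM in the controls. Its lower control value stands for 32 reads, and it was called higher only without Ctrl-N3 (adjusted p = 0.00519). The window of Smarcad1 is shown as that of a gene with values above 0 in 1 group only. In it 76% of its bases are purines and it joins exons 16 and 17 of 24.
Smarcad1 (GRCm38 chr6:65096821-65098652, plus strand, intron left out): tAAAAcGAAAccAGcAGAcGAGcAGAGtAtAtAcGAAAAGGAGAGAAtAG

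The ARID proteins outside SWI/SNF share the AT-rich interaction DNA-binding domain but lack an ATPase. Arid4a, which binds the retinoblastoma protein and recruits a SIN3 deacetylase complex, had 20.8, 8.54 and 28.6 FPKM in the Pfn1-KO-labelled libraries, against 87.2 and 55.5 FPKM in the controls. Arid4b (SAP180), its partner in the same complex, had 10.02, 4.02 and 13.6 FPKM in the Pfn1-KO-labelled libraries, against 41.8 and 31.8 FPKM in the controls. Both were called lower, with log2 fold changes of -1.94 ± 0.66 (adjusted p = 0.0358) and -2.01 ± 0.60 (adjusted p = 0.0237). The call of Arid4a was kept only without Ctrl-N3, and that of Arid4b without KO-N3, Ctrl-N1 or Ctrl-N3. The pair moved as 1: Arid4b was 32.5%, 32.0% and 32.3% of their sum in the Pfn1-KO-labelled libraries, against 32.4% and 36.5% in the controls. These were also among the few remodelers in which Ctrl-N1 was above Ctrl-N3, as it was in 7 of the 38 genes. Arid3a, a DNA-binding ARID factor, had 4.40, 2.07 and 4.88 FPKM in the Pfn1-KO-labelled libraries, against 5.11 and 13.9 FPKM in the controls (-1.05 ± 0.55, adjusted p = 0.121). Arid5b, a partner of the demethylase PHF2, had 17.7, 6.55 and 29.5 FPKM in the Pfn1-KO-labelled libraries, against 9.96 and 6.26 FPKM in the controls (0.87 ± 0.68, adjusted p = 0.275). Arid3b and Arid5a were at most 0.988 and 1.09 FPKM in the Pfn1-KO-labelled libraries and were listed at 0 in both controls.

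The windows of the Arid4 paralogs are shown because both genes were called lower and both carry, within exon 11 of 24, a stretch of 92% purines.
Arid4a (GRCm38 chr12:71047307-71047356, plus strand): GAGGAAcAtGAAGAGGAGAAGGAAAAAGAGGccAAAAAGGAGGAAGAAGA
Arid4b (GRCm38 chr13:14155067-14155116, plus strand): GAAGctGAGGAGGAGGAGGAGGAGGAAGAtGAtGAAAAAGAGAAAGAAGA

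Read over all members, the purine windows were richer than those of most genes. The median top window held 88% purines over the 35 tested remodelers, beside 74% over 11840 protein-coding genes tested with a coding sequence. A window of at least 86% purines, a level chosen after the values were seen, occurred in 24 of the 35, or 68.6%, beside 8.70% of protein-coding genes. The remodelers also have longer coding sequences, with a median of 4803 bases, beside 1401 bases, and a longer sequence offers more windows; its part in this share was not tested. Of these 24, 3 were called higher and 5 lower, and of the other 11, 6 were called higher and 1 lower. Among the genes called higher on either side, Chd1 alone would have passed the filter on its control values. The counts called higher are therefore descriptions. The 1030 protein-coding genes with such a window were called higher in 30.5% and lower in 17.1%, beside 12.5% and 20.8% of the 24 remodelers with one. The 10810 without it were called higher in 77.3% and lower in 0.731%, beside 54.5% and 9.09% of the 11 remodelers without one. Across the 35 genes, which share the same 5 libraries and are not independent, the top purine share and the log2 fold change had a Spearman rho of -0.45, and the top pyrimidine share a rho of -0.02. The rho over the 35 genes takes in Smarcad1 and Srcap, whose values are set by the pseudocount, and other genes near 0 in the controls. Across the 11840 protein-coding genes the purine rho was -0.16. Remodelers not called were about as rich in purines as those called lower. A window of at least 86% occurred in 16 of the 20 not called (80%) and in 5 of the 6 called lower (83.3%). The median top windows were 90% and 89%. Smarcd3 was called lower with 72%. Arid1b, Ep400 and Chd9 were called higher with 94%, 88% and 86%. Each of these 3 reached 1 FPKM in 1 control only, so their calls are descriptions.

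**Figure D5:**
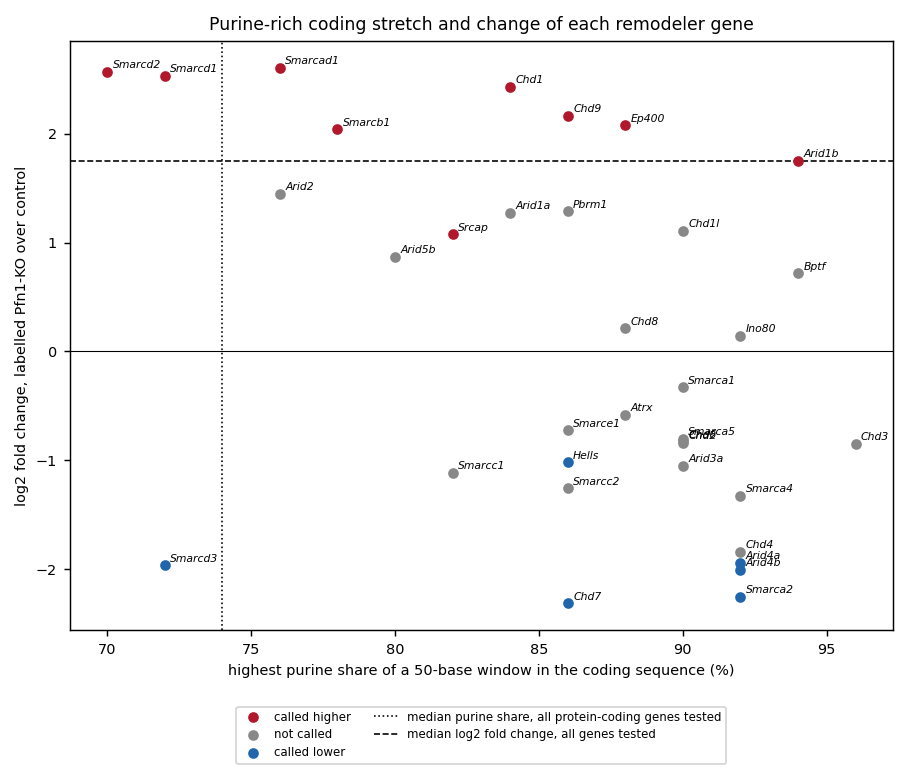
log2 fold change of the Pfn1-KO-labelled libraries over controls (vertical axis) against the highest purine share, in percent, of a 50-base window in the coding sequence (horizontal axis) for the 35 remodeler genes tested. For Smarcad1 and Srcap the plotted change is set by the pseudocount and is no fold. Each point is 1 gene, coloured by its call. The dotted line marks the 74% median of protein-coding genes and the dashed line the all-gene median change of 1.75. Of the 6 genes called lower 5 lie at 86% or more, with Smarcd3 at 72% as the exception, and so do 16 of the 20 not called.

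The window of Arid1b is shown because it is at least as rich in purines (94%) as those of the Arid4 genes. All Pfn1-KO-labelled libraries of Arid1b lay above both controls. Its call as higher is a description, kept in 1 of 5 fits with a library left out. The window lies in exon 20 of 20.
Arid1b (GRCm38 chr17:5341554-5341603, plus strand): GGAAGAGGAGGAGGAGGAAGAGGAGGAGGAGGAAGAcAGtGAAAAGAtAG

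Other subunits of the same complexes were counted from textbook lists of 69 genes, of which 66 were tested. Among these partners 35 were called higher and 5 lower, beside 70.1% and 2.13% of all genes tested, and the median log2 fold change was 1.42, beside 1.75. Of the 35, only Rbbp4, Gatad2b, Mbd2 and Morf4l1 would have passed the filter on their control values. The other calls as higher, here and by complex, are given as descriptions. The counts for each complex that follow are read beside the same shares, and differences between complexes were not tested. In BAF and PBAF, 9 of 14 were higher and 2 lower, and the lower ones were bromodomain subunits. Brd9, the defining subunit of noncanonical BAF, had 5.44, 3.03 and 5.84 FPKM in the Pfn1-KO-labelled libraries, against 50.9 and 117 FPKM in the controls (log2 fold change -3.80 ± 0.57, adjusted p = 0.00228). Brd7, of PBAF, had 18.5, 10.6 and 18.6 FPKM in the Pfn1-KO-labelled libraries, against 73.9 and 109 FPKM in the controls (-2.47 ± 0.55, adjusted p = 0.0082). Both kept the call in each fit with a library left out, and Brd9 also under TPM (-3.22, adjusted p = 0.00519). On the higher side Bcl7a, a BAF accessory subunit, had 20.4, 6.30 and 21.3 FPKM in the Pfn1-KO-labelled libraries, against 0 and 0.152 FPKM in the controls.

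Of the ISWI partners 2 of 11 were called higher and 1 lower, which was Pole3, a histone-fold subunit of CHRAC, at 23.4, 7.49 and 17.5 FPKM in the Pfn1-KO-labelled libraries, against 79.7 and 140 FPKM in the controls (-2.77 ± 0.66, adjusted p = 0.0105, and 0.0502 without KO-N4). Of the NuRD partners 4 of 10 were higher and 1 lower. Mta1, a scaffold of NuRD, had 15.7, 12.5 and 17.8 FPKM in the Pfn1-KO-labelled libraries, against 0 and 1.10 FPKM in the controls. Its log2 fold change of 3.48 ± 0.47 (limma adjusted p = 0.00177) was 1.45 after quantile normalization (limma adjusted p = 0.111). Mta1 could not have passed the filter on its control values, so its call is a description. Hdac1, a deacetylase of NuRD, had 12.1, 22.6 and 11.0 FPKM in the Pfn1-KO-labelled libraries, against 40.8 and 140 FPKM in the controls (-2.31 ± 0.70, adjusted p = 0.0249). The call of Hdac1 was lost without KO-N2 (adjusted p = 0.115), KO-N4 (0.111) or Ctrl-N3 (0.0648). The partners of INO80, SRCAP and TIP60 were called higher in 19 of 28, near the share of all genes, and lower in 1. That gene was Ino80b, at 9.67, 4.59 and 6.45 FPKM in the Pfn1-KO-labelled libraries, against 51.5 and 52.1 FPKM in the controls (-2.79 ± 0.50, adjusted p = 0.00382). Epc1 and Yeats4, of TIP60, were listed at 0 in both controls and had 9.22 to 17.7 FPKM and 9.29 to 16.2 FPKM in the Pfn1-KO-labelled libraries. The lists were chosen from complex membership, with earlier results of these data known.

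The libraries themselves were compared over the 38 genes. In log2(FPKM + 1), pairs of Pfn1-KO-labelled libraries had a Pearson r of 0.941 to 0.987, pairs of 1 library of each group 0.649 to 0.757, and the 2 controls 0.895, as descriptions over genes that are not independent. Ctrl-N3 was above Ctrl-N1 in 27 of the 38 genes. Among the Pfn1-KO-labelled libraries, KO-N4 was the highest in 28 genes and KO-N3 the lowest in 35. KO-N3 was low over most of the 15046 protein-coding genes too, where KO-N2 exceeded it in 12131 and it exceeded KO-N4 in 3723. CT010467.1 had 133787 FPKM in KO-N3, the highest of its group, against 291221 and 311036 FPKM in the controls. A link between these was not tested.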

How the data were processed

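Podocyte TRAP RNA of mice was sequenced from poly(A) libraries, 3 labelled Pfn1-KO and 2 control, each of 3 pooled mice. Per the labels and the study's methods, the authors used fastp 0.20 for trimming, STAR 2.7.9 for alignment (build GRCm38.p6), featureCounts 2.0.0 for reads per gene and DESeq2 1.30.1 for their test; genes with at least 6 reads in 20% of samples were kept. The deposited values are FPKM, which the authors normalized to gene length and library size; the methods name TPM. The 1991 rows without values were not analysed. Columns carry a group and a number, not the labels' replicate numbers, and were mapped to groups only. Whole reads (tolerance 0.02) were recovered for all 38 genes from FPKM and GENCODE vM21 exon lengths.

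limma 3.58.1 (R 4.3.3, empirical Bayes with a trend, two-sided) was fitted on log2(FPKM + 1) to genes of at least 1 FPKM in 2 or more libraries, with Benjamini-Hochberg adjustment over 14631 genes. The pseudocount understates changes of low genes. That libraries are separate pools is stated by the methods, and p-values measure the spread between pools. Paralog pairs were compared by exact permutation over the 5 libraries, two-sided. Scripts were tested on simulated data. All members are named; values per library are given for ATPases, called genes and targeting subunits, and for partners with the largest changes. The members and lists were chosen with earlier results of these data known. Alternatives were filters, pseudocounts, scalings, array weights, limma-voom on recovered reads and leaving out each library. Coding windows were taken from the transcript with the longest coding sequence of each gene.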

Additional observations from a re-analysis of the deposited data

How the results depend on the processing

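Of 519 comparisons of a remodeler gene's log2 fold change with an alternative, 379 kept direction and side of the threshold, 63 lost the call, 43 gained one and 34 changed sign; the cause was not tested. The filter to genes above 0 in every library left 4 remodelers, 12 partners and 2440 genes called higher. Without any filter the all-gene median was 1.16, with a pseudocount of 0.1 it was 3.79 and with 5 it was 0.70. limma-voom gave 20 partners higher, 207 genes lower and a median of 5.84. Median-ratio scaling gave 4 remodelers and 18 partners higher, 18 remodelers, 12 partners and 904 genes lower, and medians of -1.55 (remodelers) and 0.98 (all genes). Quantile normalization gave 0 remodelers, 2 partners and 1023 genes higher, 15, 13 and 1806 lower, and medians of -1.57 and -0.091. TPM gave 0 remodelers, 1 partner and 98 genes lower, and medians of 0.34 and 2.93. The nuclear protein-coding sum gave 16 remodelers, 11 partners and 620 genes lower. Without 1 library, the remodelers called higher ranged between 6 and 12 and those called lower between 0 and 10, partners between 24 and 35 and between 3 and 7, all genes between 6446 and 10698 and between 136 and 475, and the medians between -0.93 and 0.50 (remodelers) and between 1.62 and 1.96 (all genes).

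Signs turned as follows, in log2. With median-ratio scaling, Arid1a was at -0.31, Arid2 at -0.080, Arid5b at -0.82, Bptf at -1.03, Chd1l at -0.15, Chd8 at -1.46, Ino80 at -1.55 and Pbrm1 at -0.43. After quantile normalization, Arid1a was at -0.38, Arid1b at -0.24, Arid2 at -0.47, Arid5b at -0.85, Bptf at -0.63, Chd1l at -1.22, Chd8 at -1.57, Chd9 at -0.14, Ino80 at -1.56, Pbrm1 at -0.20, Smarcb1 at -0.15 and Srcap at -0.35. With the nuclear protein-coding sum, Arid5b was at -0.13, Bptf at -0.31, Chd8 at -0.78 and Ino80 at -0.86. Under TPM Atrx was at 0.14 and Smarca1 at 0.34, and Smarca1 was at 0.65 with a pseudocount of 0.1 and at 2.90 by limma-voom. Without Ctrl-N1, Arid1a was at -0.49 and Chd8 at -0.078. Without Ctrl-N3, Ino80 was at -0.0015, Smarca1 at 1.16 and Smarce1 at 0.57, and without KO-N4 Ino80 was at -0.037. Over the fits without 1 library, Arid1a ranged between -0.49 and 3.04, Chd8 between -0.078 and 0.50, Ino80 between -0.037 and 0.37, Smarca1 between -1.82 and 1.16 and Smarce1 between -2.02 and 0.57. Of the overlapping paralog pairs, Smarcd1 minus Smarcd2 turned to 0.76 with a pseudocount of 0.1, 0.45 without Ctrl-N1 and 0.0020 without KO-N2, Arid4b minus Arid4a to 0.11 with a pseudocount of 5 and 0.067 without Ctrl-N3, Smarca1 minus Smarca5 to -0.89 without Ctrl-N1, and Arid1b and Arid2 minus Arid1a to -0.32 each without Ctrl-N3. Over these fits Smarca1 minus Smarca5 ranged between -0.89 and 1.84, Smarcd1 minus Smarcd2 between -0.53 and 0.45, Arid1b minus Arid1a between -0.32 and 1.27, Arid2 minus Arid1a between -0.32 and 0.66, and Arid4b minus Arid4a between -0.19 and 0.067.

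No paired analysis was possible because the columns carry numbers of which the groups share only 1, and these are not the replicate numbers of the labels. In a fit that leaves out 1 control, the lone control is assumed to vary like the other group. Depth limits the low values: Smarcb1 and Smarcd1 rest on 13 and 8 reads in the controls, and of the remodelers the fewest reads in a Pfn1-KO-labelled library were 11.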

Other observations

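The partner subunits split by purine window in the same direction as the remodelers. Of 17 partners with a window of at least 86% purines, 2 were called higher and 4 lower in the Pfn1-KO-labelled libraries. Of the 1030 protein-coding genes with such a window 30.5% were called higher and 17.1% lower. The median log2 fold change was -0.27 for these partners, beside 0.45 for the 1030 genes. Of the 49 partners without one, 33 were called higher and 1, Ino80b with 82%, lower. Of the 10810 protein-coding genes without one 77.3% were called higher and 0.731% lower. The medians were 1.87 for these partners and 2.03 for the 10810 genes, so the median was lower with such a window over all protein-coding genes as well. The 4 lower partners with such a window were Brd9 (94%), Brd7 (92%), Pole3 (88%) and Hdac1 (86%). The level of 86% was chosen after the values were seen, and no test was run on these counts. Among the partners called higher, only Rbbp4, Gatad2b, Mbd2 and Morf4l1 would have passed the filter on their control values. The counts called higher are therefore descriptions.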
